A study of Mus musculus with 4 samples.

Results

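The subject was 10 genes used as markers of neural progenitors and young neurons, measured in mouse embryonic stem cells in which Pnpla6 had been silenced. They are Nes, Vim, Nefl and Nefm, which encode intermediate filament proteins, Zic2, Gbx2 and Pax6, which encode transcription factors, Hes5, Ncam1 and Tubb3. Members were all probes, other than controls, whose RefSeq accession belongs to 1 of these 10 genes. This gave 15 probes of 41174 on the array, or 10 genes of the 17016 that the accessions name, and 60 spots of 43379 per array. Of these, 13 probes of 9 genes were bright enough to be tested. The Nefm probe and 1 of 2 Pax6 probes were not.

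The silenced group was the D3 line of mouse embryonic stem cells transfected with siRNA against Pnpla6 (siNTE in the labels, for neuropathy target esterase), and the control group was D3 cells of the same culture time, whose own transfection, if any, the labels do not state. Both groups were seeded as embryoid bodies in serum medium without LIF, the cytokine that holds mouse embryonic stem cells in the undifferentiated state, and RNA was collected at 24 h and 96 h. Each of 4 arrays read in Cy3 and Cy5 carried silenced and control RNA of 1 time, with 2 arrays per time and the dyes exchanged between them. The labels do not say whether the 2 replicates of a time came from separate cultures, so the spread between arrays may be technical. The test of silencing had a term for dye orientation, which is also the replicate number. A replicate difference shared by both times goes into that term. The p-values and standard errors (SE) of the silencing effects therefore do not measure the whole spread between replicate arrays. D3 is an unsorted stem cell line, not a neural line, and the RNA came from whole cultures: fewer cells of a type and less RNA per cell cannot be told apart here.

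The targeted gene was lower at 24 h in the libraries labelled silenced. Its brighter probe had log2 ratios of -0.73 and -1.002 on the 24 h arrays, a fitted level 54.9% of that in control cells, and the other had -0.75 and -0.39, or 67.5%. At 96 h both probes had a fitted log2 ratio of 0.01. Per channel, 62.5% to 68.7% of spots were well above background, and no spot was saturated. Both 24 h arrays and 96 h replicate 1 lay on 1 slide, and 96 h replicate 2 on another.

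Intermediate filaments are the strong, rope-like part of the cytoskeleton, and which subunits a cell makes follows its lineage. Dividing neural progenitors build theirs from nestin (Nes) and vimentin (Vim), and neurons replace these with neurofilaments, whose light and medium chains are Nefl and Nefm. Vimentin is also the filament of mesenchymal cells and of many cells in culture, and nestin occurs in some muscle and vascular progenitors, so neither marks neural cells alone. Notch signalling keeps progenitors dividing through Hes5, a repressor of proneural genes, and Pax6, Zic2 and Gbx2 pattern the neural plate. The last of these is expressed in pluripotent cells as well. Ncam1 is a cell surface adhesion molecule of neurons and many embryonic tissues, and Tubb3 is the beta tubulin of neurons.

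Promoter sequences in RefSeq (build GRCm38.p6) were matched by symbol for 6 of the 10 genes: Nes, Vim, Hes5, Gbx2, Pax6 and Tubb3. Those of Nes and Vim are shown because these 2 filament genes were lower in silenced than in control cells at 96 h. That of Hes5 is shown because its RNA rose with time in both groups. Each runs 5′ to 3′ over the 250 bases before the transcription start on the plus strand, at chr3:87970843-87971092 for Nes, chr2:13574061-13574310 for Vim and chr4:154960673-154960922 for Hes5. Capitals mark matches, on either strand, to TATAAA (the TATA box), CCAAT (the CCAAT box), GGGCGG (the GC box) or GTGGGAA (the form bound by RBPJ, the DNA-binding partner of Notch).
Nes promoter: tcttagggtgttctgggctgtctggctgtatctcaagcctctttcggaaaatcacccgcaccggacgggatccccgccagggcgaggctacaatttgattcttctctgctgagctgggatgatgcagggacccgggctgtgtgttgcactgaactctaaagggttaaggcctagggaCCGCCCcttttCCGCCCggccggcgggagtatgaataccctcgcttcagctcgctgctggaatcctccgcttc
Vim promoter: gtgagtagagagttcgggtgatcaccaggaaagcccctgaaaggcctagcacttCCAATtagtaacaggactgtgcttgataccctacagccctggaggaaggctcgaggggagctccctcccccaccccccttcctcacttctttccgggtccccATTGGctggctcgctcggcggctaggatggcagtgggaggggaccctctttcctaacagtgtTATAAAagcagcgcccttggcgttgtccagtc
Hes5 promoter: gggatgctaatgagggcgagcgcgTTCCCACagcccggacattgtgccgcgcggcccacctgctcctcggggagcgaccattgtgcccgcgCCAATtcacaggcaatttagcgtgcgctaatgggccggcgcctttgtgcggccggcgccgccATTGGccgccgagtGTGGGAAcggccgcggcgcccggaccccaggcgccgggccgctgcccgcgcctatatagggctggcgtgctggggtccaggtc

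The Nes window held 2 GC boxes and none of the other 3 motifs. The Vim window held a TATA box that begins 32 bases before the start and 2 CCAAT boxes. The Hes5 window held 2 CCAAT boxes and 2 GTGGGAA matches, which begin 83 and 226 bases before the start and lie on opposite strands. No match overlapped another in these 3 windows. Of all 32851 promoter windows of the same length, 12.4% held TATAAA, 33.8% CCAAT, 32.7% GGGCGG and 5.42% GTGGGAA. These matches describe the letters and show no binding.

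At 96 h, 4 of the 9 genes tested were lower in silenced cells and 1 was higher. Nes, Nefl, Vim and Zic2 were lower, and Ncam1 was higher on the 2 of its 5 probes that are labelled with 1 of its 2 RefSeq transcripts on the array. Hes5, Gbx2, Pax6 and Tubb3 did not pass the test. In all, 6 of 13 probes passed (46.2%), 4 lower and 2 higher, against 12.9% of all 28079 probes tested (6.68% lower and 6.24% higher). Members were chosen with earlier results of these data known, so this share and those below describe the members and are no test of the set. A probe passed when its adjusted p was under 0.05 in limma's moderated test of the log2 ratio of silenced to control RNA, with Benjamini-Hochberg adjustment over all 28079 probes. Without the term for dye orientation in the fit, 3 of the 6 passed: Nes, Nefl and 1 Ncam1 probe. With the authors' deposited log ratios, tested the same way, none of the 6 did (lowest limma adjusted p 0.169), although all 6 were of the same sign and larger: -1.19 for Nes, -1.05 for Nefl, -0.59 for Vim, -0.60 for Zic2, and 0.96 and 0.63 for Ncam1. The median log2 ratio was 0.03 over the 13 member probes and 0.00 over all probes. Over the whole array 1753 probes were higher and 1877 lower, and 1387 higher and 857 lower when the arrays were centred on their median instead of fitted by loess.

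**Figure D1:**
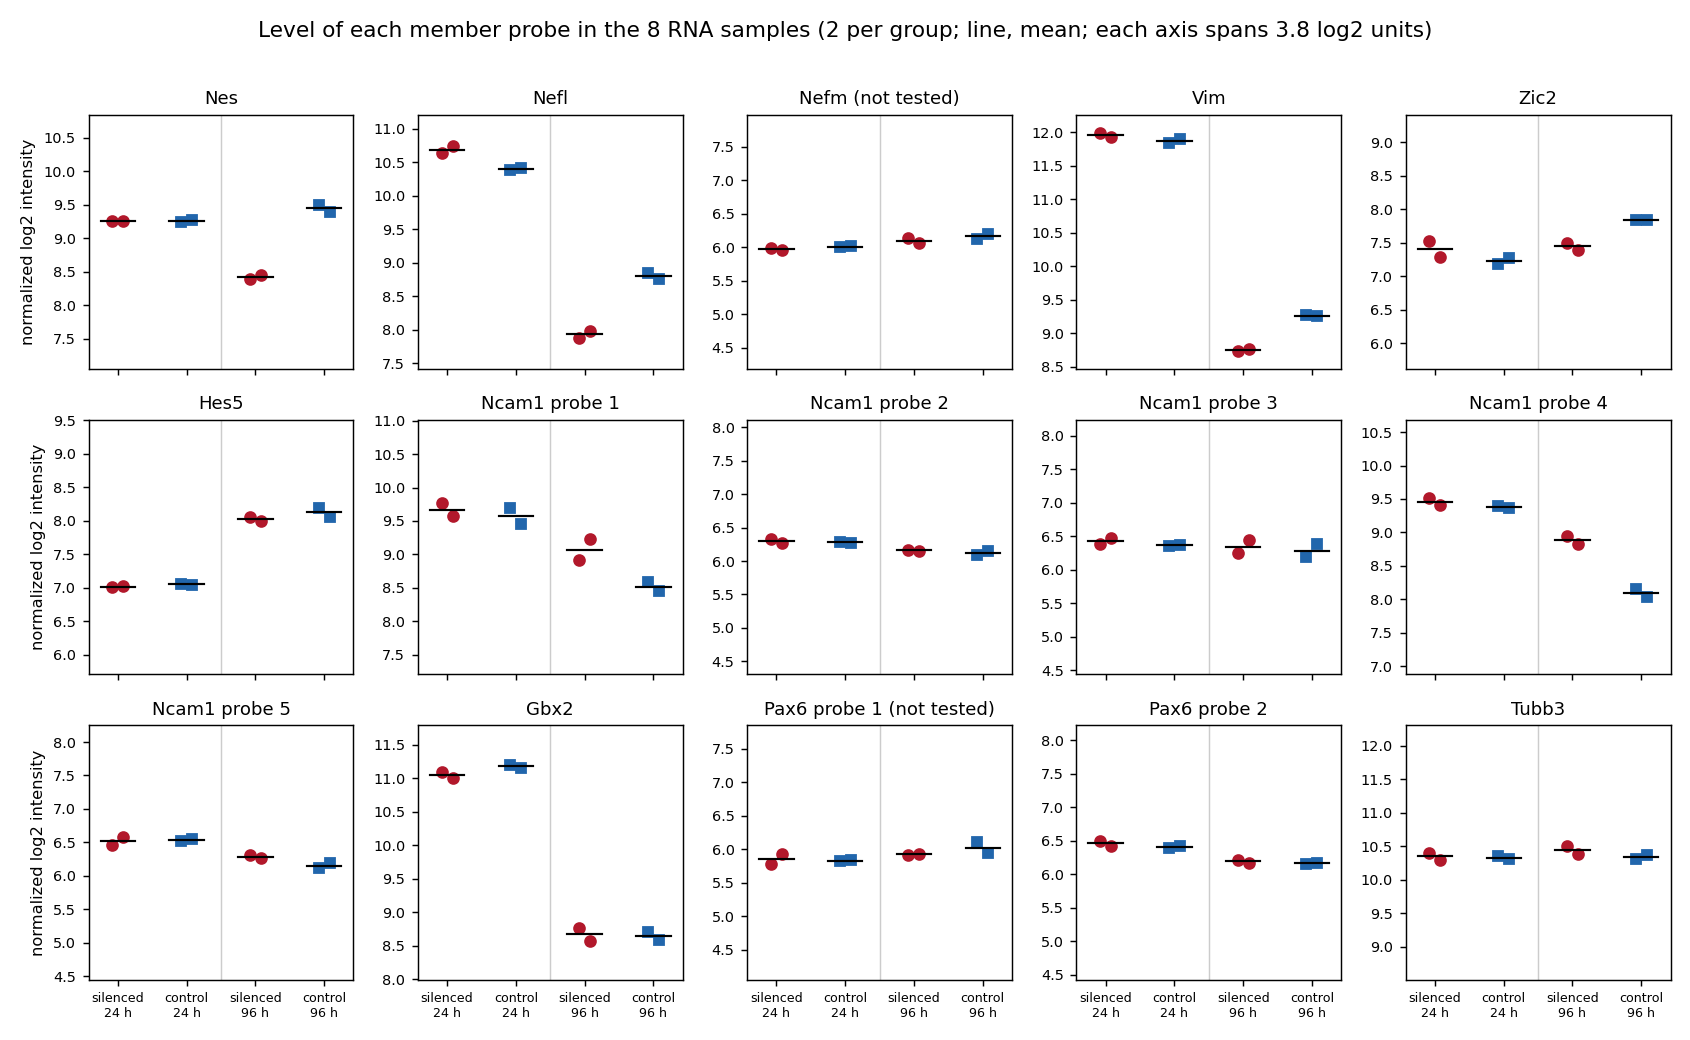
Normalized log2 intensity of the 15 member probes (y axis) in silenced (circles) and control (squares) cells at 24 h and 96 h (x axis), 2 samples per group, with the line at their mean. Every axis spans the same range. At 96 h, Nes lies at 8.39 and 8.46 in silenced cells and at 9.50 and 9.40 in control cells, while the 4 values at 24 h are nearly level.

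Nes had normalized log2 intensities of 8.39 and 8.46 in silenced cells and 9.50 and 9.40 in control cells at 96 h. The groups were far apart, with a gap many times the difference between replicates. The log2 ratio was -1.11 on replicate 1 and -0.94 on replicate 2, for a mean of -1.02 (SE 0.06, limma adjusted p = 2.3e-17), so silenced cells had 49.2% of the control level. The call held when any array was left out, a fit that also lacks the dye term. The probe lay at rank 22 from the bottom of 28079. The array carries this probe in 10 spots, which gives repeat readings within each hybridization. All 10 spots were negative on both 96 h arrays, between -1.16 and -1.03 on replicate 1 and between -1.05 and -0.78 on replicate 2.

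At 24 h the same Nes spots scattered around 0. Silenced cells had log2 intensities of 9.26 and 9.26, and control cells 9.25 and 9.27. The log2 ratio was 0.00, with a 95% interval of -0.13 to 0.13. At that time 4 of 10 spots were negative on replicate 1 and 5 of 10 on replicate 2. The difference was thus seen at the time when Pnpla6 RNA was at the control level, and not at the time when it was reduced.

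**Figure D2:**
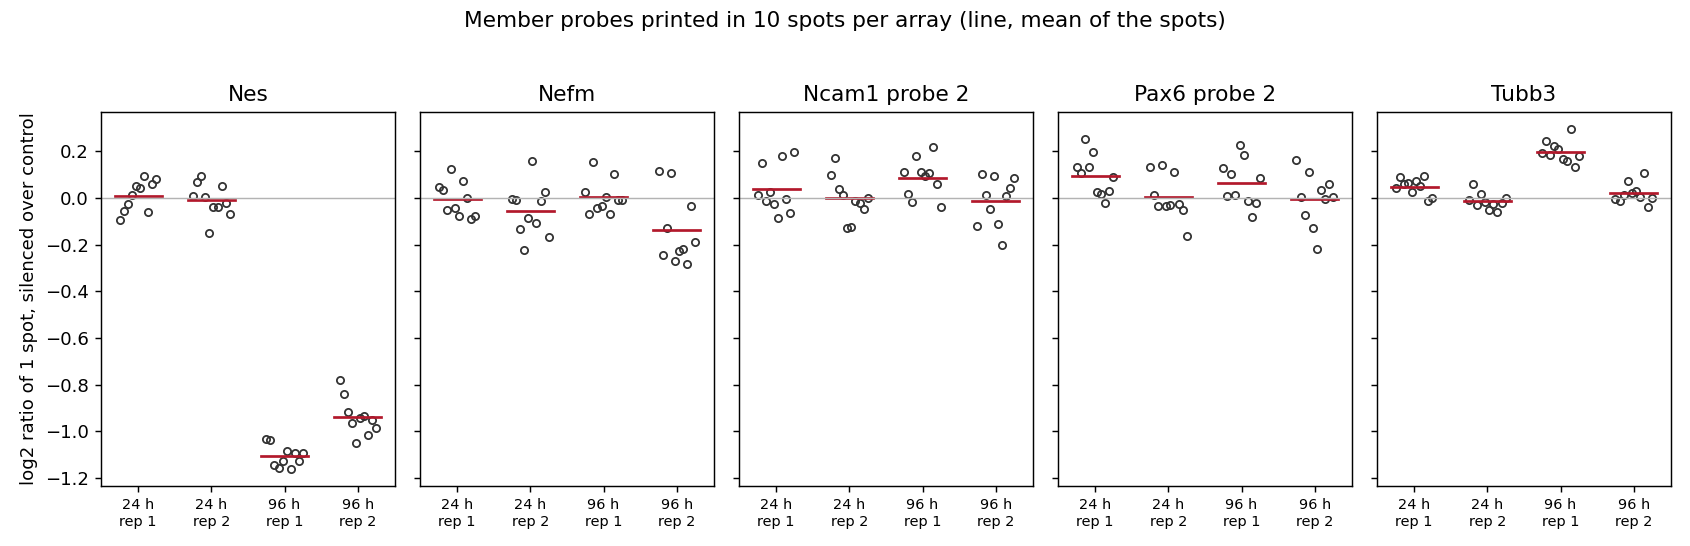
Log2 ratio of silenced to control RNA (y axis) for each of the 10 spots of the 5 member probes printed in several spots, on each array (x axis), with the line at the mean of the spots. Every Nes spot lies below 0 on both 96 h arrays and Nes spots straddle 0 at 24 h, and the Tubb3 spots are all above 0 on 96 h replicate 1, with 3 below 0 on replicate 2.

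Nefl, the light neurofilament chain, had log2 intensities of 7.88 and 7.98 in silenced cells and 8.84 and 8.76 in control cells at 96 h. The log2 ratios were -0.96 and -0.78, with a mean of -0.87 (SE 0.06, limma adjusted p = 4.87e-15), which is 54.6% of the control level. The call was lost without 96 h replicate 1 (adjusted p = 0.0725; range over 11 alternatives 4.37e-27 to 0.169). Nefl was also the member that passed at 24 h, in the other direction. There it had 10.64 and 10.74 in silenced cells and 10.38 and 10.42 in control cells. The log2 ratios of 0.26 and 0.32 gave a mean of 0.29 (SE 0.06, limma adjusted p = 0.0172), or 1.22-fold higher. The groups did not overlap at either time. This 24 h call was lost in 8 of 11 alternative settings, among them those without the dye term and without any 1 array (limma adjusted p = 1 in each; range over the alternatives 0.00707 to 1).

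Nefm, the medium chain, was listed on the array by 1 probe in 10 spots, and it was well above background in 2 of 8 channels, 1 of silenced and 1 of control cells, both at 96 h. Its log2 intensity was 6.14 and 6.06 in silenced cells and 6.13 and 6.20 in control cells at 96 h. At this signal no difference could be tested.

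Vim had log2 intensities of 8.73 and 8.76 in silenced cells and 9.27 and 9.25 in control cells at 96 h. Replicates of a group differed far less than the groups did. The log2 ratios were -0.54 and -0.49, with a mean of -0.52 (SE 0.06, limma adjusted p = 2.81e-08), or 69.9% of the control level. At 24 h silenced cells had 11.99 and 11.93 and control cells 11.85 and 11.90, with a log2 ratio of 0.08 (limma adjusted p = 0.891). Without the dye term the 96 h call was lost, at an adjusted p of 0.0539, as it was without 96 h replicate 1 (0.332) or replicate 2 (0.28; range over 11 alternatives 2.18e-11 to 0.332).

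Zic2, a zinc finger factor of the neural plate and dorsal neural tube, had 7.50 and 7.40 in silenced cells and 7.85 and 7.85 in control cells at 96 h. The log2 ratios of -0.35 and -0.45 gave a mean of -0.40 (SE 0.06, limma adjusted p = 7.35e-06), or 75.7% of the level in control cells. The 24 h arrays differed, with 0.36 on replicate 1 and 0.02 on replicate 2, and the mean of 0.19 did not pass (limma adjusted p = 0.296). The 96 h call was lost without the dye term, at an adjusted p of 0.213, and without any 1 array, at 0.119 for either 24 h array, 0.517 for 96 h replicate 1 and 0.679 for 96 h replicate 2 (range over 11 alternatives 3.03e-07 to 0.679).

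**Figure D3:**
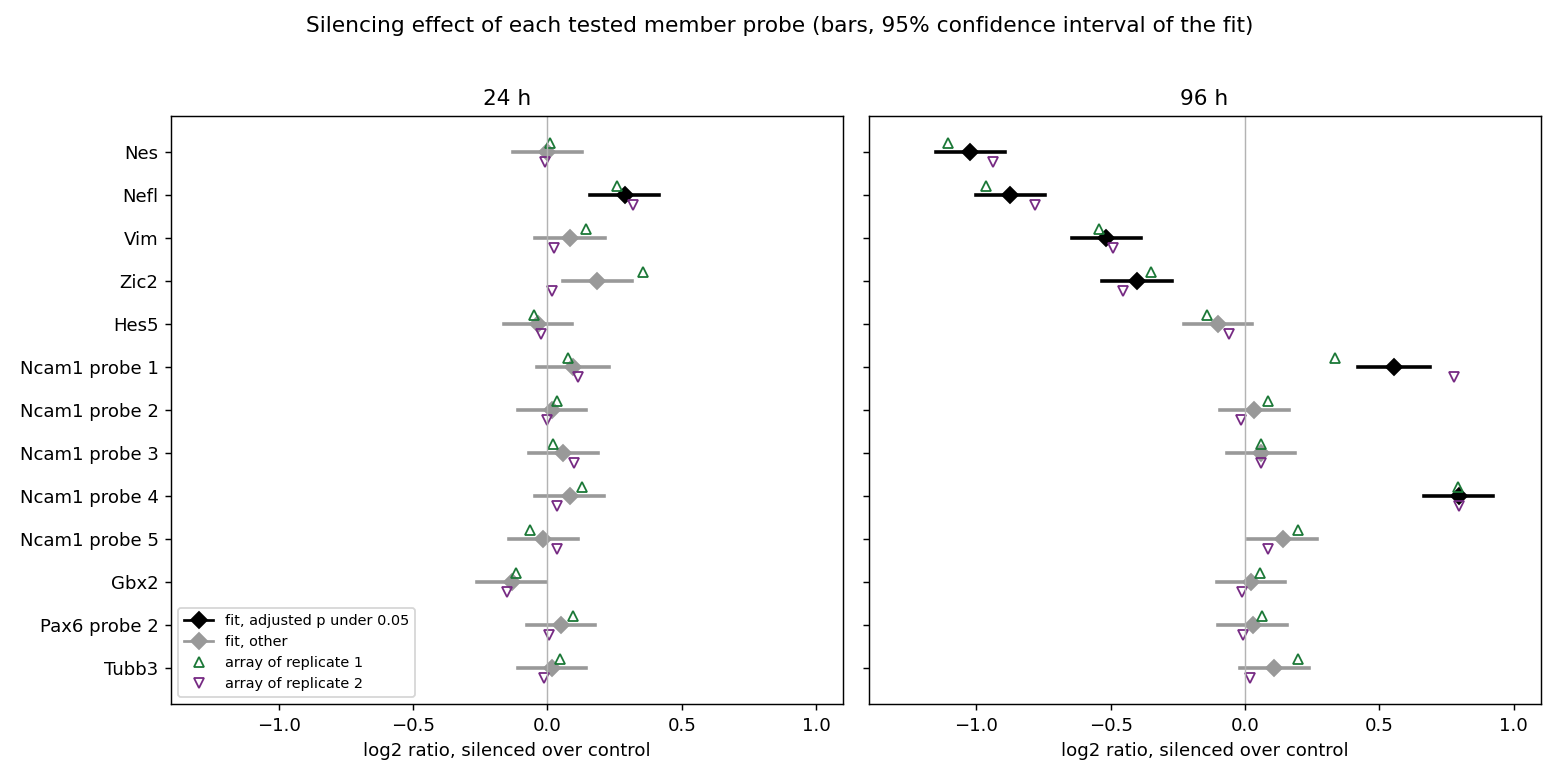
Log2 ratio of silenced to control RNA (x axis) for the 13 tested member probes (y axis) at 24 h and at 96 h. Diamonds with bars are the fitted value and its 95% confidence interval, black where the adjusted p is under 0.05, and open triangles are the arrays. At 96 h Nes, Nefl, Vim and Zic2 lie below 0 on both arrays and Ncam1 probes 1 and 4 above 0 on both.

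Ncam1 was measured by 5 probes. Probe 1 (A_51_P380309) and probe 4 (A_52_P613255) carry the accession NM_001081445, and probes 2, 3 and 5 (A_52_P291924, A_52_P382754 and A_52_P684037) carry NM_010875. Probe 4 had log2 intensities of 8.95 and 8.83 in silenced cells and 8.15 and 8.04 in control cells at 96 h. Its log2 ratios were 0.79 and 0.80, with a mean of 0.80 (SE 0.06, limma adjusted p = 9.57e-14), or 1.74-fold higher. The call was lost without 96 h replicate 1 (adjusted p = 0.0725) or replicate 2 (0.0637; range over 10 alternatives 1.67e-23 to 0.169). It ranked 7 from the top of 28079 probes.

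Probe 1 of Ncam1 had 8.92 and 9.23 in silenced cells and 8.58 and 8.45 in control cells at 96 h. The groups did not overlap, but its arrays disagreed in size, with 0.33 on replicate 1 and 0.78 on replicate 2. The mean of 0.56 (SE 0.07, limma adjusted p = 1.3e-08) was lost without the dye term, at an adjusted p of 0.127, and without any 1 array, at 0.0852 for either 24 h array, 0.0725 for 96 h replicate 1 and 0.623 for 96 h replicate 2 (range over 11 alternatives 9.12e-13 to 0.623).

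The 3 NM_010875 probes were dim, with log2 intensities from 6.14 to 6.44 in silenced cells and from 6.09 to 6.38 in control cells at 96 h. Their log2 ratios were 0.04, 0.06 and 0.14, and none passed (lowest limma adjusted p 0.159, for probe 5). The constant added before taking logarithms, 50 intensity units, pulls ratios of dim spots toward 0: with 16 units they were 0.07, 0.10 and 0.26, and with the authors' deposited log ratios 0.38, 0.27 and 0.25, again without a call. At 24 h the 5 probes had log2 ratios between -0.01 and 0.10, and none passed. Whether the probes read different transcripts of Ncam1 in these cells was not tested.

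Hes5, Gbx2, Pax6 and Tubb3 did not pass at 96 h. Hes5 had 8.05 and 7.999 in silenced cells and 8.19 and 8.06 in control cells, with a log2 ratio of -0.10 (95% interval -0.23 to 0.03). Gbx2 had 8.76 and 8.58 in silenced cells and 8.71 and 8.59 in control cells, with a ratio of 0.02 (-0.11 to 0.15). The tested Pax6 probe had 6.22 and 6.17 in silenced cells and 6.15 and 6.17 in control cells, with a ratio of 0.03 (-0.10 to 0.16), at a dim signal. Tubb3 had 10.51 and 10.38 in silenced cells and 10.31 and 10.36 in control cells, with a ratio of 0.11 (-0.02 to 0.24). None of these 4 intervals reaches a change as large as that of Nes, Nefl or Vim, though for the dim Pax6 probe the added constant narrows the interval. The SE behind all 4 does not measure the whole spread between replicate arrays, so the intervals may be too narrow to exclude a change.

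The 10 spots of Tubb3 repeated closely, with a spot SD of 0.03 to 0.05 on each array. Its spots were all positive on 96 h replicate 1 (mean 0.20), and 3 of 10 were negative on replicate 2 (mean 0.02). The spots of an array thus differed less among themselves than the 2 arrays did.

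At 24 h, 1 of 13 member probes passed (7.69%), Nefl, against 0.406% of all probes (114 of 28079). Hes5 had a log2 ratio of -0.03 there and Gbx2 of -0.13, with 11.09 and 11.00 in silenced cells and 11.21 and 11.15 in control cells (limma adjusted p = 0.624). Pax6 and Tubb3 had ratios of 0.05 and 0.02.

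The silencing effect differed between the times for the same 6 probes that passed at 96 h, where 6.91% of all probes did. The difference, the 96 h log2 ratio minus that at 24 h, was -1.16 for Nefl (SE 0.09, limma adjusted p = 1.19e-13), -1.02 for Nes, -0.60 for Vim and -0.59 for Zic2. For Ncam1 it was 0.71 on probe 4 and 0.46 on probe 1. None of these 6 differences passed without the dye term, in a fit where no probe of the array did (0 of 28079 by adjusted p, and 1672 at an unadjusted p under 0.05).

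The change of each member with time was read within silenced and within control cells. Here single channels of different arrays are compared, so differences between arrays enter as well. In silenced cells 8 of 13 member probes changed between 24 h and 96 h, 1 up and 7 down, against 37.8% of all probes. In control cells 8 changed as well, 2 up and 6 down, against 37% of all probes. Changes in the paired values below are log2 of 96 h over 24 h.

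Vim fell by 3.21 in silenced cells and fell by 2.61 in control cells. Gbx2 fell by 2.38 in silenced cells and fell by 2.53 in control cells. Nefl fell by 2.76 in silenced cells and fell by 1.60 in control cells. Vim, Gbx2 and Nefl each had an adjusted p of 2.9e-05 or less in both groups (limma). The means of control cells at 24 h and 96 h were 11.87 and 9.26 for Vim, 11.18 and 8.65 for Gbx2, and 10.40 and 8.80 for Nefl. The neural name is that of the gene set and does not show neural cells in these cultures. These 3 genes were brighter at 24 h than at 96 h in both groups.

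Nes and Zic2 parted between the groups. Nes fell by 0.83 in silenced cells (limma adjusted p = 0.00098), whereas control cells had a change of 0.19 that did not pass (adjusted p = 0.226). The change in control cells did pass in 2 alternatives, with the replicate block (0.0416) and without 24 h replicate 2 (0.24, adjusted p = 0.0256). Zic2 rose by 0.62 in control cells (limma adjusted p = 0.00674), whereas silenced cells had a change of 0.03 (adjusted p = 0.868). The test of each divergence is the difference between times given above, since it is the same quantity.

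Hes5 rose with time by 1.01 in silenced cells and by 1.08 in control cells (limma adjusted p = 0.000157 and 0.000113). The size of this rise depends on how low signals are treated. With the authors' processed signals it was 1.54 in silenced cells and 1.66 in control cells. It had 7.01 and 7.02 in silenced cells and 7.06 and 7.04 in control cells at 24 h, and every 96 h sample lay above these. Its promoter window, shown above, is the one with 2 GTGGGAA matches, and whether Notch acts through them in these cells was not tested.

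Ncam1 probe 4 fell with time by 0.57 in silenced cells and fell by 1.28 in control cells, and probe 1 fell by 0.59 in silenced cells and fell by 1.05 in control cells. The higher Ncam1 level of silenced cells at 96 h was thus a smaller fall from a like level at 24 h. The fall of probe 1 in silenced cells was near the threshold (limma adjusted p = 0.0401, highest 0.0809 over 11 alternatives). Probe 5 fell by 0.39 in control cells (limma adjusted p = 0.0371) and had -0.23 in silenced cells (0.168), and probes 2 and 3 did not pass in either group. Pax6 had -0.27 in silenced cells (limma adjusted p = 0.0393) and -0.25 in control cells (0.0538). For these dim probes the size depends on how low signals are treated. With the authors' processed signals, Pax6 had -1.20 in silenced cells and -1.22 in control cells, and both passed. Ncam1 probe 5 then had -0.99 in silenced cells and -1.21 in control cells, and both passed. In control cells probe 2 (-1.17) and probe 3 (-0.53) passed as well. Tubb3 was level, with 0.10 in silenced cells and 0.01 in control cells, neither past the test.

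**Figure D4:**
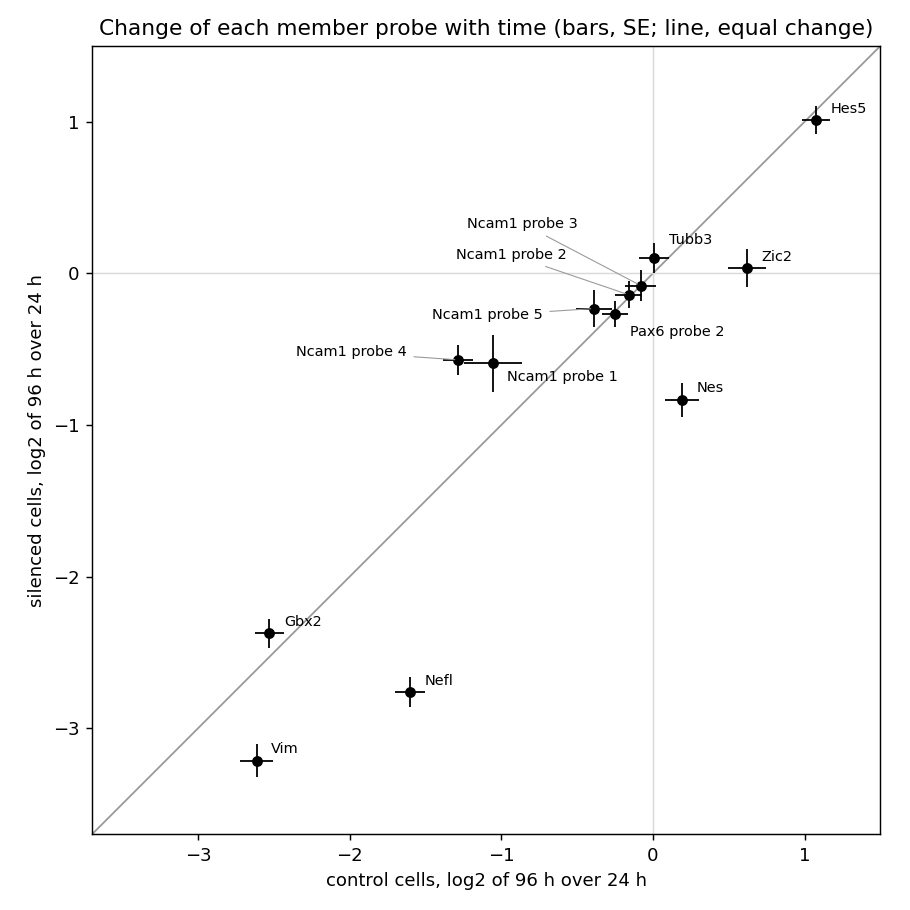
Change of the 13 tested member probes between 24 h and 96 h as log2 of 96 h over 24 h, in silenced cells (y axis) and control cells (x axis), with SE bars and the line of equal change. Nes, Nefl, Vim and Zic2 lie below the line and Ncam1 probes 1 and 4 above it, while Hes5, Gbx2, Pax6 and Tubb3 lie close to it.

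Other genes of the same roles were taken from 5 lists, with the brightest probe of each gene. Of all 21751 genes or unnamed probes counted this way, 13.4% passed at 96 h and 0.418% at 24 h, and the median log2 ratio at 96 h was 0.00. Genes called higher or lower passed limma's test over all probes, with an SE of 0.06 to 0.07. At 24 h no gene of the 4 neural lists passed. The intermediate filament list had 1, Lmnb1, with 0.54 on replicate 1 and -0.02 on replicate 2.

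Of 31 neural progenitor regulators tested, 5 were higher and 7 lower at 96 h, with a median log2 ratio of -0.02. Pou3f1, a POU factor of the epiblast and neural progenitors, had a log2 ratio of -0.63. Prom1, a membrane protein of progenitors, had -0.47, and Sox11, a factor of young neurons, had -0.45. Vax2, which patterns the ventral eye, had 0.72. Its arrays read 0.59 and 0.86. Other probes of Prom1 (-0.30) and Sox11 (-0.28 and -0.08) were also negative, the last without a call.

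The Notch pathway list had 2 genes higher and 1 lower of 15 tested, a median log2 ratio of 0.02. Notch4 had 0.32 and the ligand Dll1 0.29, and Hes6, which promotes neuronal differentiation and opposes other Hes factors, had -0.44. A second Hes6 probe had -0.17 and did not pass. Of 29 proneural and neuronal genes, 2 were higher and 3 lower, with a median of 0.01. Mapt, the axonal microtubule protein tau, had 0.52 (0.27 and 0.77 on the arrays), with 0.34 and 0.42 on its other 2 probes. Ina, the neuronal filament alpha-internexin, had -0.37, and Tuba1a, an alpha tubulin, -0.22.

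Among 13 other intermediate filament genes, 1 was higher and 5 lower, with a median of -0.02. Krt8, the keratin of simple epithelia, had a log2 ratio of -0.78, with -0.80 on a second probe, and its partner Krt18 had -0.22 (-0.30 and -0.15 on the arrays). Ina is also on this list. The nuclear lamin Lmnb1 had -0.45, but its arrays read -0.03 and -0.87. Of 15 neural adhesion genes and Ncam1 partners, 4 were higher and 1 lower, with a median of 0.09. Nrcam, an L1-family adhesion molecule, had -0.38, against the direction of Ncam1. Epha4 had 0.29, Ephb2 0.23 and Gfra1, a co-receptor that binds Ncam1, 0.21. Replicates 1 and 2 differed in size, with 0.09 and 0.49 for Epha4, 0.33 and 0.12 for Ephb2, and 0.11 and 0.31 for Gfra1. The second probes of these 3 did not pass, and those of Ephb2 (-0.07) and Gfra1 (-0.03) had the other sign.

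**Figure D5:**
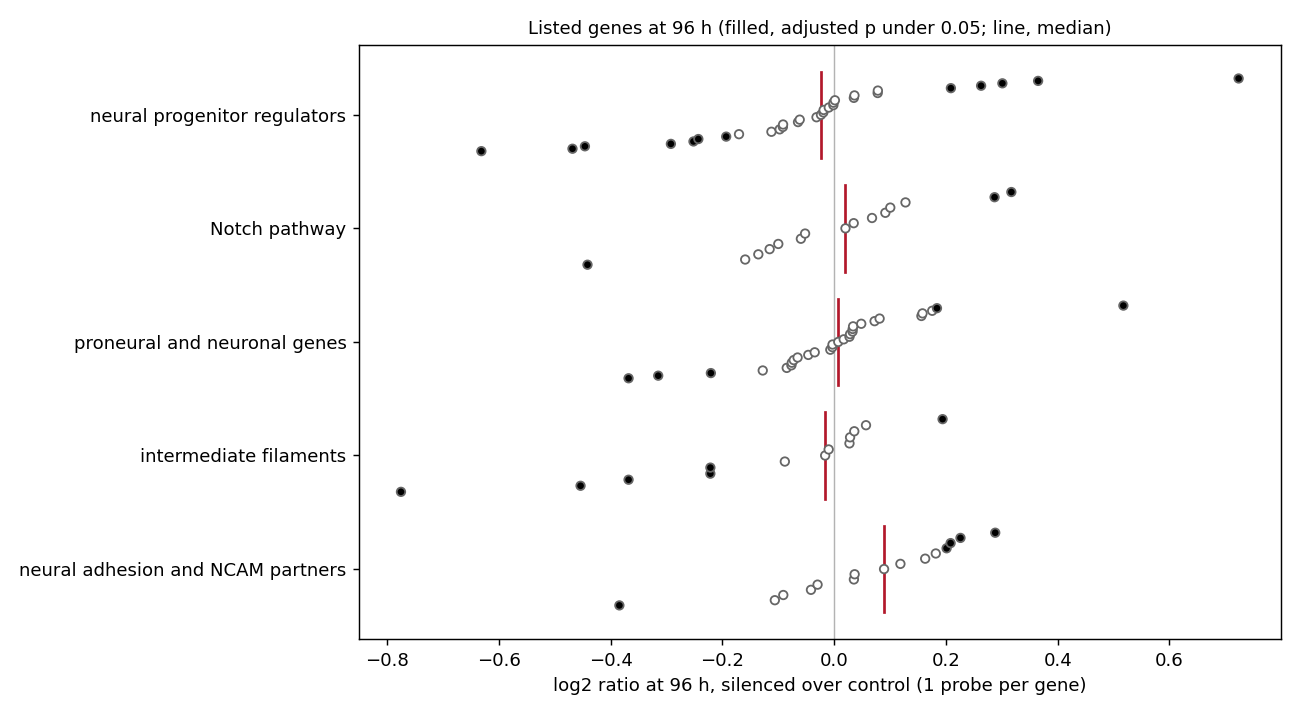
Log2 ratio of silenced to control RNA at 96 h (x axis) for each tested gene of the 5 lists (rows), 1 probe per gene, filled where the adjusted p is under 0.05, with the line at the list's median. Filled points lie on both sides of 0 in every list, with Vax2 at 0.72 and Krt8 at -0.78 the farthest out.

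Nes and Vim are also expressed outside the neural lineage, so markers of other cells were read beside them. Of 7 fibroblast markers tested of 10 listed, 4 were lower in silenced than in control cells at 96 h and 1 was higher. Cxcl12 had a log2 ratio of -0.71, Dcn -0.44 (-0.61 and -0.26 on the arrays), Col1a2 -0.35 and Fn1 0.44, and the summed intensity of the list was 3919 and 3853 in silenced cells and 3974 and 3896 in control cells. A second Cxcl12 probe had -0.12 and did not pass. Of the list's defining genes, Col3a1, Lum and Postn were not bright enough to be tested.

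Smooth muscle markers had 2 of 6 genes lower and none higher. Tagln had a log2 ratio of -1.25 (and -1.38 on a second probe) and Cnn1 of -0.86, and the summed intensity of the list was 6181 and 6096 in silenced cells and 8863 and 8521 in control cells. At 24 h no fibroblast or smooth muscle marker passed. The part of these cells in the Nes and Vim differences was not tested.

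Of 10 pluripotency markers 4 were higher and 1 lower at 96 h, with a summed intensity of 122651 and 112011 in silenced cells and 108147 and 111346 in control cells. Esrrb had 0.37, Zfp42 0.30 (0.47 and 0.12 on the arrays), Klf4 0.28 and Tfcp2l1 0.27 (0.17 and 0.37), though another Tfcp2l1 probe had -0.41. The lower one, Pou5f1, named after its values were seen, had 0.01 on replicate 1 and -2.11 on replicate 2. Of 7 mesoderm markers 1 was lower, Twist1 at -0.21, with summed intensities of 886 and 839 in silenced cells and 901 and 862 in control cells. Only 3 of the 7 were well above background in all 8 channels, and Mixl1, Msgn1 and Foxf1 were not bright enough to be tested. All summed intensities include the added constant of 50 units per gene, which narrows differences in lists of dim genes. Near-equal sums of such lists therefore do not show an unchanged share of cells. Of 9 endoderm markers 2 were higher, Cubn at 1.05 and Amn at 0.29 (0.42 and 0.17 on the arrays), with sums of 1278 and 1295 in silenced cells and 1059 and 1062 in control cells. Of these 9, 5 were well above background in all 8 channels, and Ttr was not tested.

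Of 6 endothelial markers 3 were higher, Vwf at 0.42, Pecam1 at 0.27 and Tek at 0.25. A second Vwf probe had 0.18 and did not pass. The sums of the endothelial list were 1263 and 1225 in silenced cells and 1051 and 1045 in control cells. Cdh5 and Emcn were not tested, and 4 of the 6 tested were well above background in all 8 channels. Glial markers had 1 higher and 1 lower of 5 tested, with sums of 2575 and 2663 in silenced cells and 2544 and 2412 in control cells. Aldh1l1 had 0.28, and Mbp, named after its values were seen, had -0.19 (-0.47 and 0.08 on the arrays). Aqp4, Olig1 and Sox10 were not tested. The part of these cell types in the members' differences was not tested either.

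For each member that passed at 96 h, the genes with the most similar levels were found over the 8 samples, among 4522 probes of other named genes with an SD of at least 0.3. The measure was Pearson's r over the 8 values, which fall into 2 times and share arrays, so it describes these samples. Since the 96 h values enter it, the 96 h ratios of the genes it picks are no separate evidence. A shared change with time can also give a high r. Nes was most like Grb10 (r = 0.99), Dok2 (0.97) and Lysmd2 (0.90). Grb10 is an adaptor of insulin receptor signalling. Zic2 was most like Map7d3 (0.98), Plekha5 (0.98) and Adamts15 (0.97). Ncam1 probe 1, the brightest for this gene, was most like Cd1d1, Sfrp1 and Lrrc2 (0.98 each). Vim was most like Tubd1, Pgm2l1 and Id3 (1.00 each). Their 96 h log2 ratios of silenced to control RNA were -0.08, -0.15 and -0.60, and those of Tubd1 and Pgm2l1 did not pass. Nefl was most like Tmem42 (1.00).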

How the data were processed

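RNA of silenced and control cells was hybridised to 4 Agilent two-colour arrays. Per the file headers, the authors extracted the scans with Agilent Feature Extraction 10.7.1.1, and limma is named in the submitters' processing notes. Spot and background brightness is deposited as intensity in scanner units. The same files hold log10 ratios of Cy5 to Cy3, and the authors' deposited series table equals these, turned to silenced over control, within 4.97e-06. Gene coordinates are left out, other than those of the promoter windows shown, since array and reference table differ in genome build.

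Median spot signals were background-corrected in limma 3.58.1 (R 4.3.3) with normexp and an offset of 50, and normalized by loess within arrays. Control spots had weight 0, 1 non-uniform spot was left out, and spots of a probe were averaged. Probes well above background on both arrays of at least 1 RNA group were tested (28079 of 41174); RefSeq accessions named 24375 probes, and 16799 stayed unnamed. Log2 ratios of all 4 arrays were fitted with a mean per time and a dye orientation term, which is also the replicate number. This left 1 residual degree of freedom, so the p-values lean on 45.1 prior degrees of freedom shared over probes. Time courses used lmscFit on single channels after Aquantile normalization, with dye as a covariate (intraspot correlation 0.894). Tests were two-sided, with Benjamini-Hochberg adjustment over all probes; the scripts were tested on simulated data. That there were 2 arrays per time limits the precision.

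Every member probe is reported. Of each list, the text names up to 4 genes that passed at 96 h with arrays of like sign, by size of change. Lists used the brightest probe of a gene. Members and lists were chosen with earlier results of these data known. Alternatives changed the offset, centring, dye term, probe filter, probe per gene, channel normalization, the values used and the arrays left out. Some genes that the likeness measure selects for Nefl are not reported here.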

Additional observations from a re-analysis of the deposited data

Results flagged for a closer look

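For 6 member probes the silencing effect differed between 24 h and 96 h by limma's test of the difference itself (adjusted over 28079 probes), and each is given as the 96 h log2 ratio minus that at 24 h. For Nefl it was -1.16 (adjusted p = 1.19e-13): the probe was higher in silenced cells on 2 of 2 arrays at 24 h and lower on 2 of 2 at 96 h. For Nes it was -1.02 (adjusted p = 7.53e-12), with all 10 spots lower on both 96 h arrays. For Vim it was -0.60 (adjusted p = 4.12e-06) and for Zic2 -0.59 (adjusted p = 7.23e-06), both lower on 2 of 2 arrays at 96 h. For Ncam1 it was 0.71 on probe 4 (adjusted p = 9.49e-08) and 0.46 on probe 1 (adjusted p = 0.000676), both higher on 2 of 2 arrays at 96 h. Over the alternatives the highest adjusted p of these differences was 0.278 for Nefl and Nes, 0.87 for Vim, 1 for Zic2, 0.383 for Ncam1 probe 4 and 1 for Ncam1 probe 1.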

How the results depend on the processing

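No called member result changed sign under any alternative. Uncalled values near 0 did, in 9 probe settings at 24 h and 4 at 96 h, none with a log2 ratio beyond 0.04 in size. Over all probes, lower calls outnumbered higher ones at 96 h (1877 and 1753), and the reverse held with median centring (857 and 1387). Calls were lost most often with the authors' log ratios, without the dye term (the replicate block) or with an array left out. Deviations from the group means correlated at 0.677 between same-numbered arrays over probes, with 2 pairs. Counts of all probes called by limma numbered 114 (24 h), 3630 (96 h) and 1941 (the difference between times). They were 0, 150 and 0 without the replicate block, where 271, 2662 and 1672 probes had an unadjusted p under 0.05. With an offset of 16 they were 1, 1409 and 461; with median centring 52 (26 higher), 2244 and 983; and with the authors' log ratios 0, 0 and 0 (1923, 4876 and 3754 at an unadjusted p under 0.05). Leaving out 1 array, which also drops the dye term, gave 0 to 0, 43 to 206 and 0 to 3. Member probes called, 1, 6 and 6, became 0, 3 and 0 without the block, 0, 0 and 0 with the authors' log ratios, and 0 to 0, 1 to 4 and 0 to 0 with an array left out; the 24 h call was also lost with an offset of 16 and with median centring. Over member probes and alternatives, 43 of 65 calls at 96 h and 28 of 65 for the difference were kept, and no probe without a call gained one at either time or for the difference. In the time courses, the replicate block raised the counts of all probes to 16431 from 10604 in silenced cells and to 16223 from 10380 in control cells, and 85 of 87 and 86 of 86 member calls were kept over the alternatives, while 5 of 52 uncalled probe settings in silenced cells and 11 of 53 in control cells gained a call. Fits of channels with an array left out used the intraspot correlation of all 4 arrays. The low Nefm and Pax6 signals limit what can be said of those genes.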
